A study of Mus musculus with 6 samples.

Results

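Interferon-induced genes, the genes that cells switch on when they sense an interferon, were followed in mouse thymocytes carrying the leukaemia oncogene TLX3. The set is a list of 48 named genes, each represented by the probe set that the platform annotation gives to that gene alone and, where there were several, by the brightest over all arrays. Of the 48, 41 had such a probe set, out of 19937 genes measured in this way. Isg15, Gbp2, Igtp, Irgm2 and Ifi47 had only probe sets annotated to several genes, and Ifi44 and Ly6a had none listed, so these 7 were not analysed here.

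Transcript levels were measured on 6 Affymetrix arrays with total RNA of thymocytes at the double-negative (DN) stage, the early T-cell precursors without surface CD4 or CD8, in 2 groups of 3. The group RAG-/-, labelled control, holds DN thymocytes of Rag2-/- mice, which cannot assemble antigen receptor genes and whose thymocytes stop at this stage. The group DNTLX3+, labelled tumoral, holds sorted DN thymocytes of wild-type mice given the retroviral vector pMSCV-GFP-TLX3 and kept for 4 to 5 weeks on γ-irradiated OP9-DL1 cells, a mouse stromal line carrying a Notch ligand, with interleukin 7 and Flt3 ligand. The growth protocol, entered for every sample, names C57Bl/6 mice of 4 to 6 weeks. Genotype, virus and, as far as the labels allow, culture therefore differ together between the groups. Arrays of DN cells given the empty vector pMSCV-GFP were not analysed here. The labels do not say whether the replicates came from separate mice or cultures, or whether the TLX3 cells were 1 clone. The p-values rest on the spread among the 6 arrays as they are, and part of it may be technical.

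Type I interferons act through a receptor made of Ifnar1 and Ifnar2 and the kinases Jak1 and Tyk2. Their signal brings a complex that holds Stat2 and Irf9 to the interferon-stimulated response element (ISRE) in promoters. Type II interferon (Ifng) acts through Ifngr1 and Ifngr2 and the kinases Jak1 and Jak2 on promoters with the gamma-activated site (GAS), and induces Irf1. In the thymus, epithelial and dendritic cells are known to make type I interferon in the absence of infection, and thymocytes respond to it at a low level.

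The ISRE is shown here because it is the stretch through which type I interferon is known to act on many genes of this kind. The letters GAAA-NN-GAAA (N is any base), read on both strands, were looked for in RefSeq promoter windows of 300 bases, from 250 before to 50 after each gene's start, on GRCm38.p6. Of the 41 measured genes, 30 had a window, and 14 of those (46.7%) held the letters, against 3.99% of 27025 genes in the whole table. The GAS letters TTCNNNGAA stood in 8 of the 30 (26.7%), against 9.55% of all genes. The genes were listed for being interferon-induced, so these shares describe the list. The matches that ended before the gene start are printed with 12 bases on either side, 5′ to 3′ on the gene's strand, with the matching letters in capitals. The first 8 belong to genes that were lower in DNTLX3+ cells, and Oas3, Bst2 and Stat2, which did not pass the test, held the letters as well.
Ifit1, chr19:34640773-34640825, plus strand: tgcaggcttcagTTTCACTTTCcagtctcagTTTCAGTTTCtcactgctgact
Ifit3, chr19:34583361-34583428, plus strand: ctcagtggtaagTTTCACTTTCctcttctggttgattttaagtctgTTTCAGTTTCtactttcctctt
Rsad2, chr12:26456551-26456584, minus strand: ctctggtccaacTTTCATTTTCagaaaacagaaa
Gbp3, chr3:142559987-142560026, plus strand: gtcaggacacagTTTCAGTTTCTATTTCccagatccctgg
Gbp5, chr3:142496757-142496790, plus strand: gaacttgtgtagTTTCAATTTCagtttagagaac
Irgm1, chr11:48871423-48871462, minus strand: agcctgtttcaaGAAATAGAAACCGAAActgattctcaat
Slfn5, chr11:82951935-82951968, plus strand: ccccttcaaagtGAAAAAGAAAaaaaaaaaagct
Slfn8, chr11:83020837-83020870, minus strand: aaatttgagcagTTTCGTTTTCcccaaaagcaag
Oas3, chr5:120777713-120777746, minus strand: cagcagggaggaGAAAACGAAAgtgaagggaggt
Bst2, chr8:71537575-71537614, minus strand: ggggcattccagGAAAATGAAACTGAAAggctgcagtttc
Stat2, chr10:128270264-128270297, plus strand: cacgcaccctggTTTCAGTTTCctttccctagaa
In Gbp3, Bst2 and Irgm1 a pair of matches overlapped. The ISRE letters stood in 11 of the 20 windowed genes that fell and in 3 of the 10 that were not called. The GAS letters went the other way, in 4 of the same 20 and in 4 of the same 10. Neither split was tested.

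The arrays of a group resembled each other, with mean within-group correlations over probe sets of 0.993 to 0.994 for RAG-/- and 0.976 to 0.981 for DNTLX3+. The signal range was narrower in the DNTLX3+ arrays (interquartile range of 2.47 to 2.85 log2 units, against 3.09 to 3.18), with array medians of 6.22 to 6.35. The 12 DN thymocyte markers were measured in both groups but not at like levels: Ptcra (-1.11) and Il2ra (-1.19) fell. At the adjusted p alone, 8 of the 12 were lower and 2 higher, against 19.4% and 23.0% of all genes. Their median difference was -0.56, against 0.11 over all genes. Cd2 and Cd5 were the dimmest, at means of 6.81 and 6.43 in RAG-/- and 6.19 and 7.25 in DNTLX3+ cells. Tlx3 itself was at 5.40, 5.42 and 5.52 in RAG-/- and at 7.09, 6.52 and 6.45 in DNTLX3+ cells (log2 difference 1.24 ± 0.18 SE, limma adjusted p = 0.00103). The species of the TLX3 insert is unstated in the labels. Rag2 was at 8.02 ± 0.08 in RAG-/- and 7.72 ± 0.24 in DNTLX3+ (SD, n = 3). Where its probes lie relative to the Rag2 deletion is unstated in the labels, so this gene does not check them.

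The comparison asks how the interferon-induced transcripts of DN cells carrying TLX3 stand relative to those of Rag2-/- DN cells. They were lower in the DNTLX3+ cells across all 6 functional groups of the list. Of the 41 genes, 31 fell, none rose and 10 were not called, where a call needs a limma adjusted p under 0.05 and a log2 difference (DNTLX3+ minus RAG-/-, as everywhere here) of at least 1. Over all genes, 5.07% fell and 1.44% rose by the same rule, 6.51% in either direction. The median difference of the 41 was -1.21, against 0.11 over all genes. At the adjusted p alone, 37 of the 41 were lower and none higher, against 19.4% and 23.0% of all genes. No gene of the 41 was higher at an unadjusted p under 0.05 either, against 5898 of all 19937 genes. In 39 of the 41, every DNTLX3+ array lay below every RAG-/- array, against 26.0% of all genes. In none of the 41 did every DNTLX3+ array lie above every RAG-/- array, against 32.3% of all genes.

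**Figure D1:**
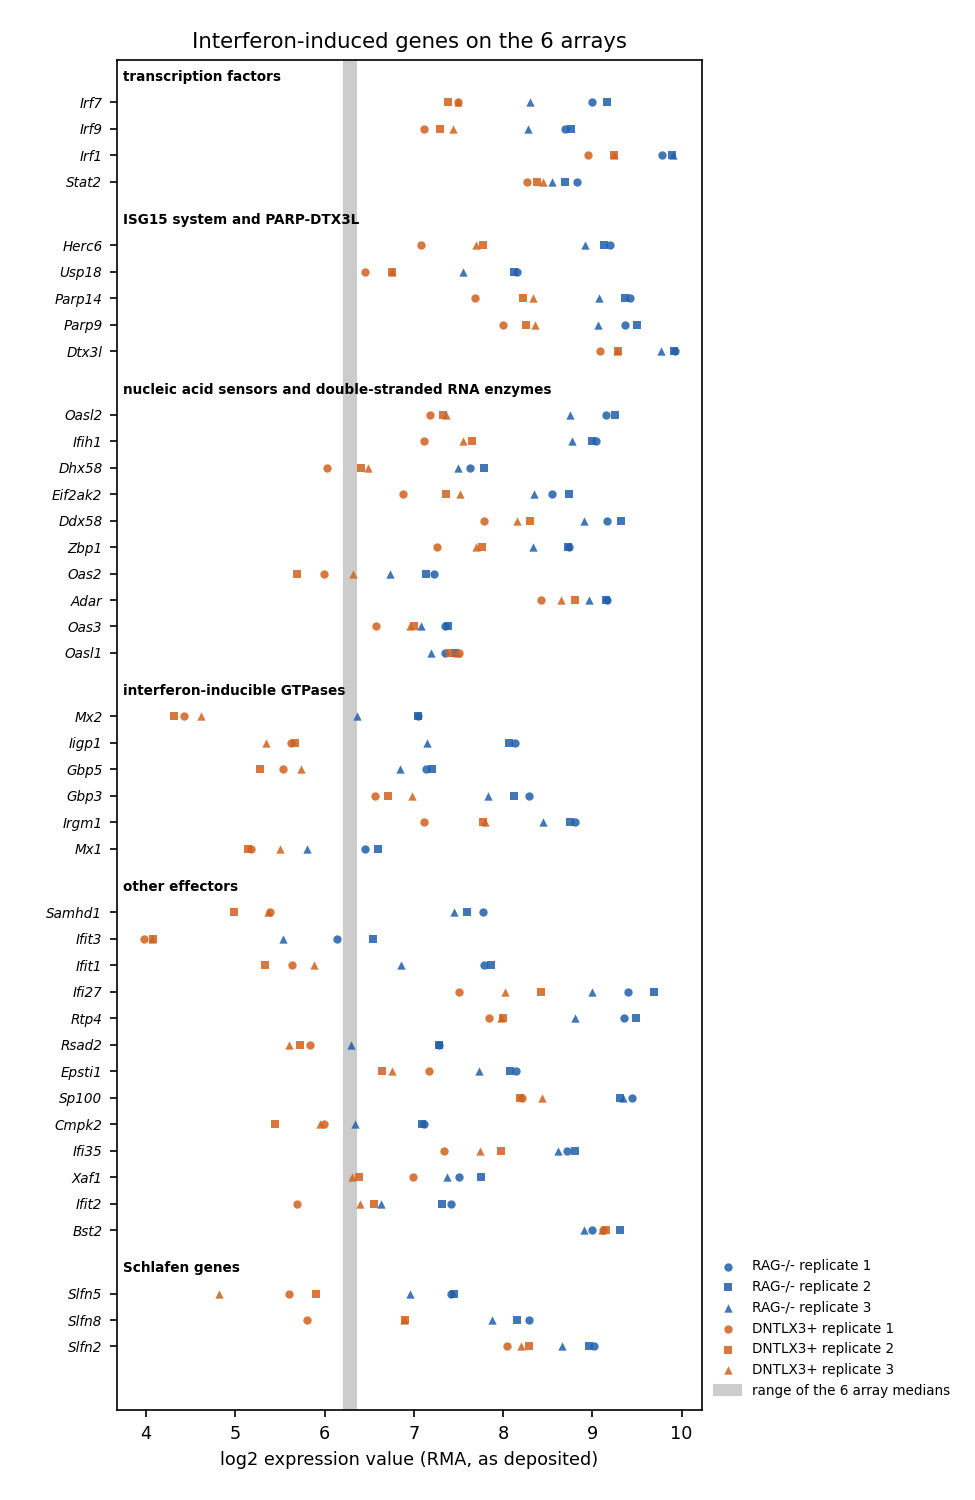
Log2 expression values (x axis) of the 41 genes (rows, grouped by function) on the 6 arrays, with blue for RAG-/-, orange for DNTLX3+ and a marker shape for each replicate number. The orange points lie to the left of all blue points in 39 rows, the exceptions being Oasl1 and Bst2, and the grey band marks the array medians of 6.22 to 6.35.

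In bulk RNA, fewer cells that carry a transcript and less transcript per cell cannot be told apart. Of the 41 genes, 13 had a DNTLX3+ mean under 6.35, the highest array median, where a value may be background. For those genes only the difference of deposited values is given, and for the rest also a fold. Long genes were lower in general in DNTLX3+ cells: above the median level, the 2150 longest genes had a median difference of -0.38. The 2151 shortest were at 0.13 and all 10749 such genes at -0.14. Of the 41, which were not filtered by level, 3 were as long as the 2150 longest, with a median difference of -1.27. The other 38 had a median difference of -1.16, and the part of gene length was not tested. Values of single arrays are given in the order of replicates 1, 2 and 3.

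Among the 4 transcription factors, Irf7 and Irf9 fell and Irf1 and Stat2 were not called. Irf7, which amplifies type I interferon production, was at 9.00, 9.16 and 8.30 in RAG-/- and at 7.49, 7.38 and 7.49 in DNTLX3+ cells. It was 2.58-fold lower (log2 difference -1.37 ± 0.21 SE, limma adjusted p = 0.00145). Irf9, the DNA-binding subunit of the ISRE complex, was at 8.69, 8.76 and 8.28, against 7.11, 7.29 and 7.44, or 2.46-fold lower (-1.30 ± 0.16, adjusted p = 0.000611). The lowest RAG-/- array of both genes was replicate 3, and it still lay above all DNTLX3+ arrays. Irf1, the factor induced by type II interferon, was at 9.78, 9.89 and 9.90, against 8.95, 9.24 and 9.24 (-0.71 ± 0.13, adjusted p = 0.0032). Its groups did not overlap and it passed the adjusted p, short of the minimum difference. A second, dimmer Irf1 probe set gave -0.41. Stat2, the transactivating subunit of the ISRE complex, was at 8.83, 8.69 and 8.55, against 8.27, 8.38 and 8.45. Its groups did not overlap, and it did not pass the test (-0.32 ± 0.13, adjusted p = 0.0706).

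The group around Isg15, a ubiquitin-like protein coupled to target proteins after interferon, and the PARP9-DTX3L complex had 4 of 5 genes lower. Herc6, the mouse ligase that attaches Isg15, was at 9.20, 9.13 and 8.92 in RAG-/- and at 7.08, 7.77 and 7.70 in DNTLX3+ cells (2.96-fold lower, -1.57 ± 0.19 SE, adjusted p = 0.000547). Usp18, which removes Isg15 and dampens receptor signalling, was at 8.16, 8.12 and 7.55, against 6.45, 6.75 and 6.75 (2.45-fold lower, -1.29 ± 0.18, adjusted p = 0.00106). Both the attaching and the removing enzyme were thus lower in 3 of 3 arrays. Parp14, an ADP-ribosyltransferase, was at 9.42, 9.36 and 9.07, against 7.68, 8.22 and 8.33 (2.31-fold lower, adjusted p = 0.00153). Parp9 was at 9.37, 9.50 and 9.06, against 8.00, 8.26 and 8.36 (-1.10 ± 0.16, adjusted p = 0.00107). Its partner Dtx3l, a ubiquitin ligase, was at 9.93, 9.91 and 9.77, against 9.09, 9.29 and 9.28. It passed the adjusted p at a smaller difference (-0.65 ± 0.13, adjusted p = 0.00398). Parp9 and Dtx3l are known to share a promoter region, and both were lower without overlap. The call of Parp9 was lost after quantile normalization again, after cyclic loess (both -0.93) and without DNTLX3+ replicate 1 (-0.997).

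Of 10 sensors of foreign nucleic acid and enzymes acting on double-stranded RNA, 7 fell and 3 were not called. The 3 RIG-I-like receptors, which detect viral RNA in the cytosol, were all among the 7. Ifih1 (MDA5) was at 9.04, 9.00 and 8.77 in RAG-/- and at 7.11, 7.65 and 7.55 in DNTLX3+ cells (2.83-fold lower, -1.50 ± 0.17 SE, adjusted p = 0.000377). Ddx58 (RIG-I) was at 9.16, 9.32 and 8.90, against 7.78, 8.30 and 8.15 (2.07-fold lower, adjusted p = 0.00188). Dhx58 (LGP2), which lacks the signalling domains of the other two, was at 7.63, 7.78 and 7.49, against 6.03, 6.41 and 6.49 (-1.33 ± 0.16, adjusted p = 0.000484). The DNTLX3+ mean of Dhx58 was 6.31, within the range of the array medians. Zbp1, a sensor of Z-form nucleic acid that can start necroptosis, was at 8.74, 8.73 and 8.33, against 7.26, 7.76 and 7.69 (2.04-fold lower, adjusted p = 0.0024). Eif2ak2 (PKR), a kinase that stops translation on binding double-stranded RNA, was at 8.55, 8.74 and 8.35, against 6.88, 7.36 and 7.52 (2.45-fold lower, -1.29 ± 0.18, adjusted p = 0.00105). In each of these 5 genes DNTLX3+ replicate 1 was the lowest array.

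The listed genes of the oligoadenylate synthetase family, whose active members make the signal that switches on RNase L, were split. The measured Oas1 genes belong to the list of other interferon-induced genes, described below. Oasl2 was at 9.15, 9.25 and 8.75 in RAG-/- and at 7.18, 7.33 and 7.36 in DNTLX3+ cells (3.39-fold lower, -1.76 ± 0.16 SE, adjusted p = 0.000132). Oas2 was at 7.23, 7.13 and 6.73, against 5.99, 5.69 and 6.32 (-1.03 ± 0.19, adjusted p = 0.00353). Oas3 was at 7.35, 7.38 and 7.08, against 6.57, 7.00 and 6.96, a difference that did not pass the test (-0.43 ± 0.16, adjusted p = 0.0523). Oasl1, known as a translational brake on Irf7, was at 7.35, 7.46 and 7.19, against 7.50, 7.40 and 7.48 (0.13 ± 0.13, adjusted p = 0.432). Its groups overlapped, so Oasl1 and Oasl2 stood apart in their values, though the difference between them was not tested. Adar, the RNA editing enzyme with an interferon-driven isoform, was at 9.16, 9.15 and 8.96, against 8.42, 8.80 and 8.65 (-0.46 ± 0.14, adjusted p = 0.0264), short of the minimum difference. The calls of Ddx58, Zbp1 and Oas2 lay near that minimum. Ddx58 lost it after quantile normalization again (-0.86), cyclic loess (-0.88), or without DNTLX3+ replicate 1 (-0.90) or RAG-/- replicate 2 (-0.95). Zbp1 lost it under the same settings (-0.84, -0.85, -0.87 and -0.97), and with array weights or without RAG-/- replicate 1 (-0.97 and -0.96). Oas2 lost it with array weights (-0.97), or without DNTLX3+ replicate 2 (-0.87), RAG-/- replicate 1 (-0.93) or RAG-/- replicate 2 (-0.98).

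All 6 measured GTPases fell, with a median difference of -1.44. Mx2, of a dynamin-like family known for blocking viruses in the cell, was at 7.05, 7.05 and 6.36 in RAG-/- and at 4.42, 4.31 and 4.61 in DNTLX3+ cells (-2.37 ± 0.20 SE, adjusted p = 9.99e-05). Its relative Mx1 was at 6.45, 6.60 and 5.80, against 5.17, 5.14 and 5.50 (-1.02 ± 0.21, adjusted p = 0.00549). C57BL/6 mice are known to carry a defective Mx1 allele, and the RAG-/- mean of Mx1, 6.28, lay within the array medians. Iigp1, an immunity-related GTPase that acts on vacuoles holding parasites, was at 8.13, 8.06 and 7.15, against 5.62, 5.67 and 5.34 (-2.24 ± 0.25, adjusted p = 0.00036). Irgm1, a regulator of that family, was at 8.80, 8.75 and 8.45, against 7.11, 7.77 and 7.80 (2.15-fold lower, -1.11 ± 0.20, adjusted p = 0.00299). Of the guanylate-binding proteins, which coat and break open such vacuoles, Gbp3 was at 8.29, 8.12 and 7.83, against 6.56, 6.71 and 6.98 (2.52-fold lower, adjusted p = 0.000571). Gbp5, which also promotes inflammasome assembly, was at 7.13, 7.20 and 6.84, against 5.53, 5.28 and 5.73 (-1.54 ± 0.16, adjusted p = 0.000272). The groups of all 6 genes were separate. Mx2, Mx1, Iigp1 and Gbp5 had DNTLX3+ values under the array medians. Gbp genes are near copies of each other, so their probes may be shared between genes. Mx1 lost its call with array weights (-0.99) or without DNTLX3+ replicate 1 (-0.97), DNTLX3+ replicate 2 (-0.95), RAG-/- replicate 1 (-0.93) or RAG-/- replicate 2 (-0.86). Irgm1 lost it with array weights (-0.99), after quantile normalization again or cyclic loess (both -0.93), or without DNTLX3+ replicate 1 (-0.88).

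Of 13 other effectors, 10 fell and 3 were not called. Samhd1, which breaks down the nucleotides that retroviruses and dividing cells need, was at 7.77, 7.59 and 7.45 in RAG-/- and at 5.39, 4.98 and 5.36 in DNTLX3+ cells (-2.36 ± 0.15 SE). It had the smallest adjusted p of the 41 genes, 4.37e-05. Ifit3, of a family that binds foreign RNA, was at 6.14, 6.54 and 5.53, against 3.97, 4.08 and 4.06 (-2.03 ± 0.23, adjusted p = 0.000372). Ifit1, which binds RNA without a methylated cap, was at 7.78, 7.86 and 6.85, against 5.63, 5.33 and 5.88 (-1.88 ± 0.26, adjusted p = 0.00095). Ifit2 was at 7.41, 7.31 and 6.63, against 5.69, 6.55 and 6.39, and was not called at -0.91 ± 0.26 (adjusted p = 0.022). It was called without RAG-/- replicate 3 (-1.15) or DNTLX3+ replicate 2 (-1.08). In all 3 Ifit genes RAG-/- replicate 3 was the lowest of its group, with differences of -0.96 (Ifit1), -0.81 (Ifit3) and -0.73 (Ifit2) from the mean of the other two arrays.

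Rsad2 (viperin), which makes a chain-terminating nucleotide, and Cmpk2, a nucleotide kinase whose gene lies beside it, fell together. Rsad2 was at 7.28, 7.28 and 6.29, against 5.84, 5.72 and 5.60 (-1.23 ± 0.25 SE, adjusted p = 0.00491). Cmpk2 was at 7.11, 7.09 and 6.34, against 5.99, 5.44 and 5.95 (-1.05 ± 0.23, adjusted p = 0.00746). Cmpk2 lost its call without DNTLX3+ replicate 2 (-0.88), RAG-/- replicate 1 (-0.92) or RAG-/- replicate 2 (-0.93). Ifi27, a mitochondrial protein, was at 9.40, 9.69 and 9.00, against 7.50, 8.42 and 8.02 (2.61-fold lower, adjusted p = 0.0028). Rtp4, a chaperone of receptors that limits RNA viruses, was at 9.35, 9.49 and 8.80, against 7.84, 8.00 and 7.98 (2.41-fold lower, adjusted p = 0.00106). Both were bright in the 2 groups, so their folds do not rest on values near background. Epsti1 was at 8.14, 8.08 and 7.73, against 7.17, 6.64 and 6.75 (2.18-fold lower, adjusted p = 0.0016). Sp100, a component of nuclear bodies, was at 9.44, 9.31 and 9.34, against 8.21, 8.19 and 8.43 (2.13-fold lower, adjusted p = 0.000451). Ifi35 was at 8.72, 8.81 and 8.61, against 7.34, 7.98 and 7.74 (2.04-fold lower, adjusted p = 0.00203). Epsti1 and Sp100 lost their calls after quantile normalization again (-0.95 and -0.91), as did Sp100 after cyclic loess (-0.92). Ifi35 lost it in both settings (-0.84 and -0.85), with array weights (-0.96) and without DNTLX3+ replicate 1 (-0.86) or RAG-/- replicate 2 (-0.98). Xaf1, a pro-apoptotic factor, was at 7.50, 7.75 and 7.37, against 6.99, 6.38 and 6.31. At -0.98 ± 0.20 (adjusted p = 0.00456) it lay just outside the minimum difference, and it was called with array weights (-1.15), equal array medians (-1.04), or without DNTLX3+ replicate 1 (-1.19), RAG-/- replicate 1 (-1.001) or RAG-/- replicate 3 (-1.06). Bst2 (tetherin), which holds budding virus at the cell surface, was at 9.00, 9.31 and 8.90, against 9.12, 9.15 and 9.11. Its groups overlapped (0.06 ± 0.14, adjusted p = 0.748), and its sign turned with equal array medians (-0.0019).

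The Schlafen genes, a family tied to T-cell quiescence and to the translation of viral RNA, lie together on chromosome 11. Slfn5 was at 7.41, 7.45 and 6.95 in RAG-/- and at 5.60, 5.90 and 4.82 in DNTLX3+ cells (-1.83 ± 0.26 SE, adjusted p = 0.00106). Slfn8 was at 8.29, 8.16 and 7.87, against 5.80, 6.90 and 6.89 (2.99-fold lower, -1.58 ± 0.28, adjusted p = 0.00269). The DNTLX3+ arrays spread more here than elsewhere in the list, with SDs of 0.56 and 0.63 against a median of 0.22 over the 41 genes. Slfn2, the member whose loss is known to break T-cell quiescence, was at 9.02, 8.96 and 8.66, against 8.04, 8.29 and 8.20. It passed the adjusted p but not the minimum difference (-0.70 ± 0.14, adjusted p = 0.00493). All 3 genes were lower in 3 of 3 DNTLX3+ arrays.

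**Figure D2:**
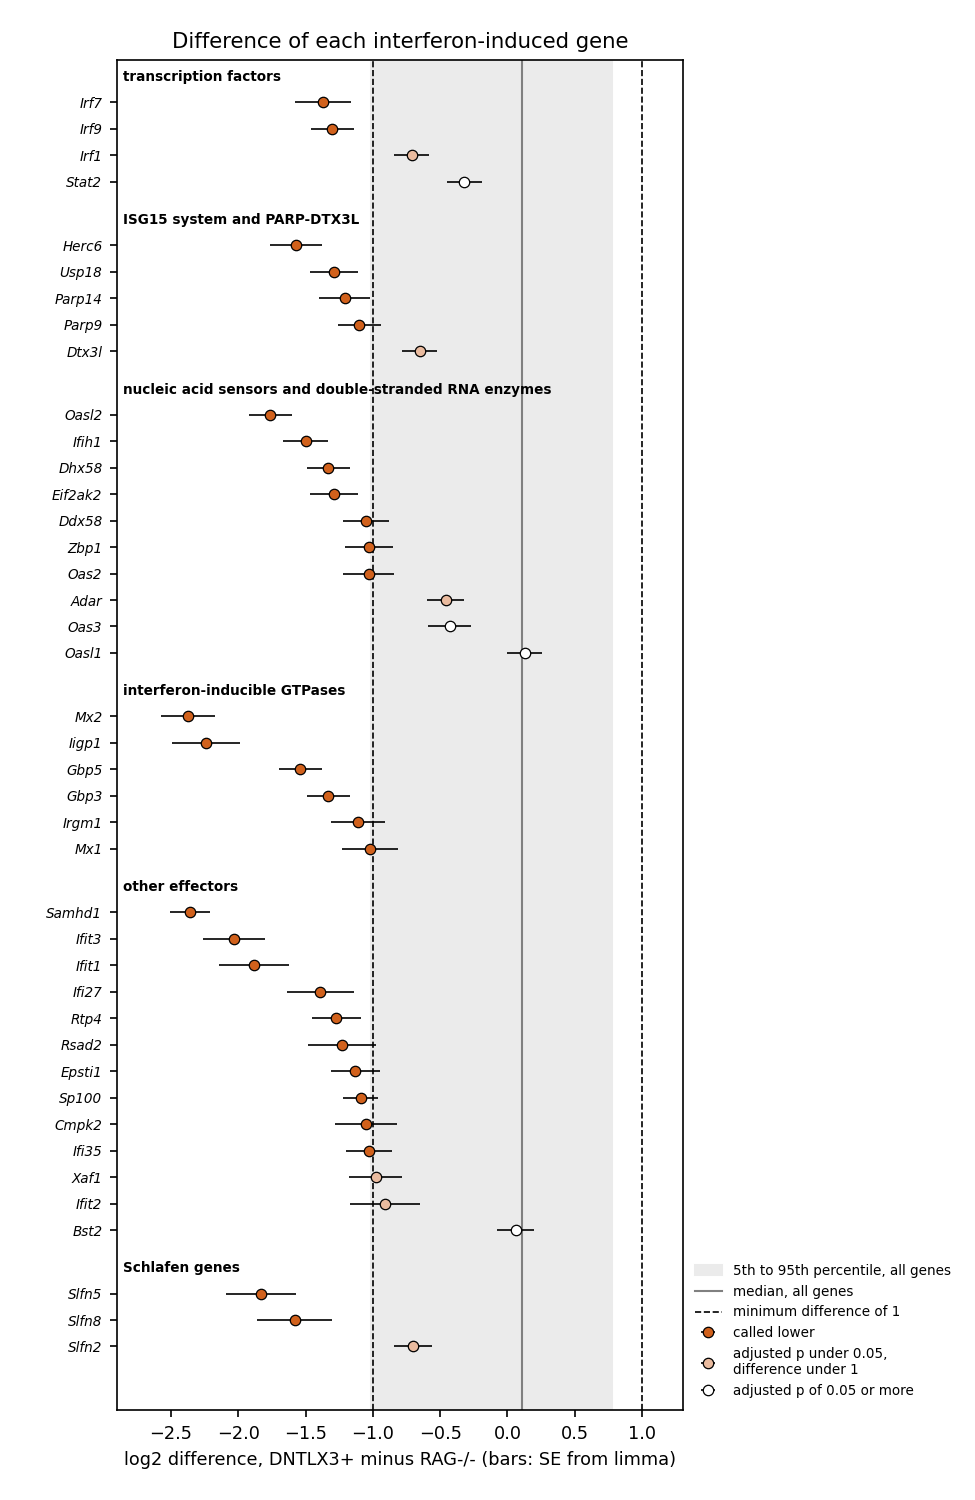
Log2 difference, DNTLX3+ minus RAG-/- (x axis), of each of the 41 genes with its limma standard error. Orange points mark the 31 called genes, pale points those past the adjusted p only and white points the rest, beside the 5th to 95th percentile of all genes (grey, -1.01 to 0.78) and their median of 0.11 (line).

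The RAG-/- arrays differed among themselves in these genes, a pattern chosen for description after it was seen. In 39 of the 41, RAG-/- replicate 3 lay below both other RAG-/- arrays, against 40.8% of all genes. It lay at least 0.5 log2 units below their mean in 12 of the 41 (29.3%), against 0.707% of all genes. Rsad2 (-0.99), Ifit1 (-0.96), Iigp1 (-0.95) and Ifit3 (-0.81) had the widest gaps, while Sp100 (-0.03) and Irf1 (0.07) had next to none. Without this array 33 of the 41 were called lower, with a median of -1.32. Without RAG-/- replicate 1, replicate 2 or DNTLX3+ replicate 1, the count was 28, 25 and 26, and it was 29 and 31 without DNTLX3+ replicate 2 or 3. The share of all genes called lower moved as well. It was 4.89%, 5.24% and 5.18% without RAG-/- replicate 1, 2 or 3. Without DNTLX3+ replicate 1, 2 or 3 it was 4.11%, 5.54% and 5.8%.

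**Figure D3:**
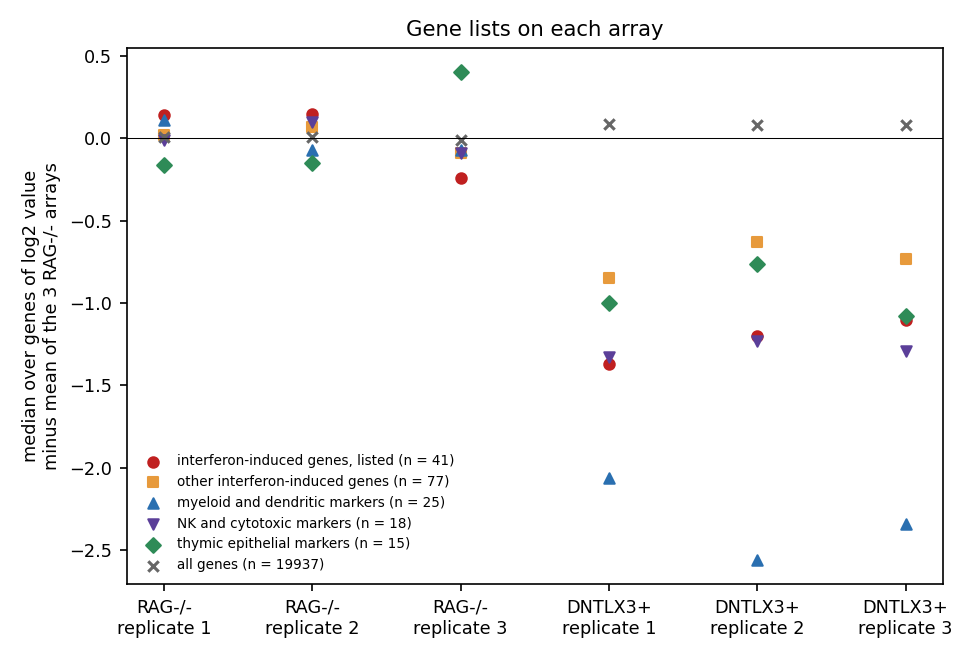
Median over each gene list (y axis, log2 value minus that gene's mean over the 3 RAG-/- arrays) on each of the 6 arrays (x axis). The 41 interferon-induced genes sit at 0.14, 0.15 and -0.24 on the RAG-/- arrays and at -1.37, -1.20 and -1.10 on the DNTLX3+ arrays, while thymic epithelial markers are highest on RAG-/- replicate 3 (0.40) and all genes stay between -0.01 and 0.09.

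Markers of several other cell types were lower in DNTLX3+ cells. The counts that follow stand beside 5.07% of all genes called lower and 1.44% called higher. At the adjusted p alone those shares were 19.4% and 23.0%. Of 25 myeloid and dendritic markers, 20 fell and none rose, and their summed linear level was 9832 to 11462 on the RAG-/- arrays and 1285 to 1417 on the DNTLX3+ arrays. In DNTLX3+ cells, 22 of the 25 had means under the highest array median, among them H2-Aa, Cd74, Itgax and Csf1r. Of 10 measured markers used for plasmacytoid dendritic cells, known as strong producers of type I interferon, 4 fell. These were Siglech (6.38 to 4.93, its RAG-/- mean close to the array medians), Tcf4 (-1.01), Lair1 (-1.43) and Pltp (10.13 to 6.72). The other 6 were not called, among them Spib (-0.13), Cox6a2 (0.37) and Pacsin1 (0.50, adjusted p = 0.0107), and the list median was -0.23. The summed level of the 10 was 4071 to 4698 on the RAG-/- arrays and 2426 to 2787 on the DNTLX3+ arrays. Of 18 NK and cytotoxic markers 11 fell (summed level 3694 to 4274, against 1751 to 2236), as did 7 of 15 thymic epithelial markers (7540 to 13389, against 1904 to 2149). Stromal markers fell in 3 of 14 and B-cell markers in none of 9 at the limma threshold, 3 of the 9 being lower and 3 higher at the adjusted p alone. For the 41 interferon-induced genes the summed level was 12818 to 16461 in RAG-/- and 6605 to 7889 in DNTLX3+ cells. Within RAG-/-, the array with the lowest interferon-induced sum, replicate 3, had the highest epithelial sum (13389) and the lowest NK sum (3694). The plasmacytoid sum was also highest on replicate 3, at 4698, against 4193 and 4071 on replicates 1 and 2. Of the 10 plasmacytoid markers, 4 lay below both other RAG-/- arrays on replicate 3 and 3 above both (median difference 0.01). The myeloid sum there, 11462, was close to the 11411 of replicate 1, and 14 of the 25 myeloid markers were lower in replicate 3 than in both other RAG-/- arrays (median difference from their mean -0.10). The part of other cells in the difference between the groups was not tested.

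The steps before these genes were described from lists of ligands, receptors and sensing adaptors, and the differences between lists were not tested. Of 17 measured ligands, 1 fell and none rose, against 5.07% and 1.44% of all genes, with a median difference of 0.17. At the adjusted p alone 4 of the 17 were higher, near the share of 23.0% over all genes. These were Ifne (0.56), Ifna9 (0.64), Ifna12 (0.80) and Ifna14 (0.54), all with means under the array medians in both groups. The 1 ligand that fell was Il15 (-1.08 ± 0.18, limma adjusted p = 0.00192), a cytokine induced by interferon and not an interferon. Its means of 5.21 and 4.13 both lay under the array medians. Its call was lost without DNTLX3+ replicate 2 (-0.92). Ifnb1 was at 4.27 ± 0.21 in RAG-/- and 4.26 ± 0.13 in DNTLX3+ cells (SD, n = 3). Ifng was at 5.65 ± 0.17 and 5.76 ± 0.30. Those values lay under the array medians, as did the means of 14 of the 17 in each group, where a value may be background.

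Of 23 receptor and signalling genes, 3 fell and none rose, against 5.07% and 1.44% of all genes (median difference -0.35). At the adjusted p alone 11 were lower and 2 higher, against 19.4% and 23.0% of all genes. Il10rb, a receptor chain shared by interleukin 10 and type III interferons, was at 7.64, 7.68 and 7.63 in RAG-/- and at 5.96, 6.10 and 6.20 in DNTLX3+ cells (-1.56 ± 0.12 SE, adjusted p = 7.63e-05). Irf8, a factor of dendritic and B cells that interferon also induces, was at 8.36, 8.16 and 8.41, against 7.07, 6.67 and 7.12 (2.56-fold lower, adjusted p = 0.000423). Jak2 was 2.09-fold lower (-1.07 ± 0.15, adjusted p = 0.000867). Ifnlr1, the other chain of the type III interferon receptor, was at 0.41 (adjusted p = 0.0216), with both means under the array medians. None of the Ifnar and Ifngr chains was called. Ifnar1 went from 8.83 ± 0.08 to 8.31 ± 0.29 (SD, n = 3; -0.52, adjusted p = 0.0274) and Ifngr1 from 11.14 ± 0.08 to 10.55 ± 0.21 (-0.59, adjusted p = 0.00986). Ifnar2 (-0.47, adjusted p = 0.0504) and Ifngr2 (-0.08, adjusted p = 0.613, positive after quantile normalization again and cyclic loess) did not pass the test. Socs1, a feedback inhibitor of both pathways, was at -0.23 ± 0.14 (adjusted p = 0.205).

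Of 18 adaptors and kinases that link nucleic acid sensing to interferon production, 4 fell and none rose (median -0.39). The shares over all genes were 5.07% and 1.44%. Unc93b1, which escorts nucleic-acid-sensing Toll-like receptors to endosomes, was at 9.54, 9.54 and 9.60 in RAG-/- and at 8.06, 8.05 and 8.28 in DNTLX3+ cells (2.70-fold lower, adjusted p = 0.000123). Ikbke, a kinase that activates Irf3 and Irf7, was at 8.58, 8.61 and 8.68, against 7.22, 7.28 and 7.51 (2.44-fold lower, adjusted p = 0.000235). Aim2, a sensor of cytosolic DNA, was 2.08-fold lower (adjusted p = 0.000459), and Tlr7, a receptor for single-stranded RNA, fell from 5.58 to 4.43 (adjusted p = 0.000977), under the array medians in both groups. Unc93b1 and Ikbke did not share the dip on RAG-/- replicate 3, which lay 0.06 and 0.09 above the mean of the other two arrays.

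Of 77 other measured genes known to respond to interferon, 27 fell and none rose, against 5.07% and 1.44% of all genes. The other 50 were not called, and the median difference of the 77 was -0.78. The 4 with the lowest differences were Ifitm3, Ifi203, Ddx60 and Ifi209. Ifitm3, a membrane protein that stops viruses from fusing, was at 8.69, 9.00 and 8.39 in RAG-/- and at 5.73, 5.87 and 5.36 in DNTLX3+ cells (-3.05 ± 0.19 SE, adjusted p = 3.76e-05). It is known from many cell types outside the T lineage. Ifi203 was 3.97-fold and Ifi209 3.34-fold lower (adjusted p = 8.64e-05 and 0.000263). Both belong to a family of DNA-binding proteins encoded in a cluster on chromosome 1, and their probes may be shared between its members. Ddx60, a helicase that aids RIG-I-like receptors, was at 8.51, 8.58 and 7.99, against 6.03, 6.87 and 6.63 (3.60-fold lower, adjusted p = 0.000651).

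**Figure D4:**
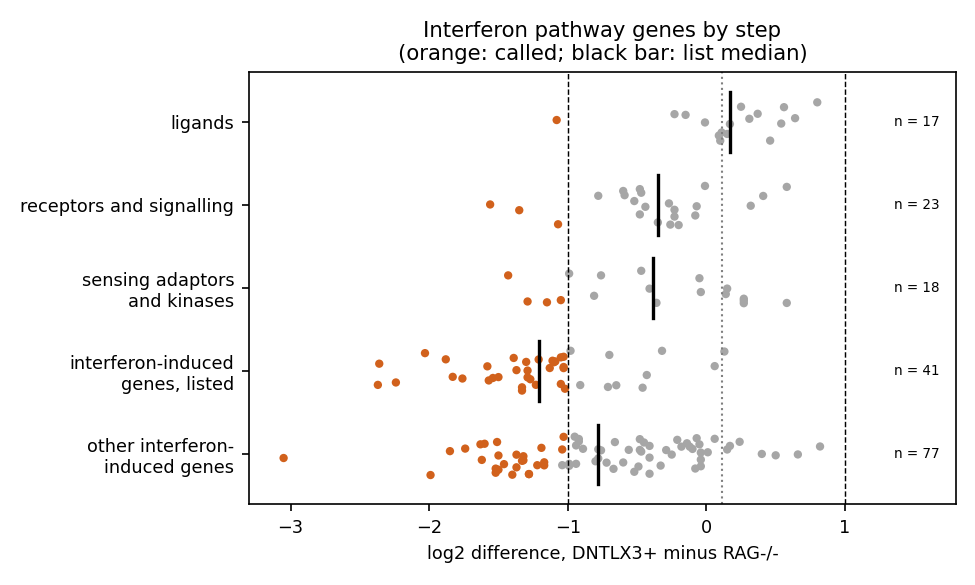
Log2 difference, DNTLX3+ minus RAG-/- (x axis), of single genes (points, spread vertically at random) at 5 steps of the interferon pathway, with called genes in orange, list medians as black bars and the median of all genes dotted. The medians are 0.17 for 17 ligands, -0.35 for 23 receptor and signalling genes, -0.39 for 18 sensing adaptors, -1.21 for the 41 genes of the list and -0.78 for 77 other interferon-induced genes.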

How the data were processed

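The deposited values are log2 expression per probe set, made by the authors with RMA. RMA subtracts background, equalizes the arrays' distributions and summarizes probes, though the deposited values still had a narrower range in the DNTLX3+ arrays. The submitters' processing notes name affy and R 2.9.0, while a genome build is not given in the sources read. Of 34760 probe sets, 6568 with low numbers and no listed gene were left out. The other 28192 were tested with limma 3.58.1 in R 4.3.3 (lmFit and eBayes, two-sided, no covariate, no further normalization), with Benjamini-Hochberg adjustment over all of them. Calls need an adjusted p below 0.05 together with a log2 difference of 1 or more in size. Each of 19937 genes stands by its brightest single-symbol probe set. Summed levels are sums of 2 to the power of the values. The genes of the list, its grouping, the other lists and the tests were chosen with earlier results of these data known. Values on every array are given for called genes, transcription factors and Schlafen genes, and for the other genes of the list, which are few. Of other pathway lists, all called genes up to 6, or else the 4 largest falls, are named, with the interferon receptors, Irf8, Socs1, Ifnb1 and Ifng. Promoter sequences are from RefSeq on GRCm38.p6. The number of arrays limits the precision. Plots were drawn with matplotlib 3.10.9.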

Additional observations from a re-analysis of the deposited data

How the results depend on the processing

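The count of the 41 genes called lower was 24 to 36 over 10 other settings and 25 to 33 with each array left out, against 31, and none was called higher in any of them. Over all genes, 4.11% to 7.62% were called lower in these settings. The setting with a minimum difference of 0.58, which gave the 36, has no such share here. Their median difference stayed between -1.32 and -1.07. Of the 31 called genes, 21 were called in all 15 settings that gave each gene a value, where they passed the filter, and the other 10 lost the call in at least 1, with no change of sign. Cyclic loess moved the median of all genes from 0.11 to 0.00 and that of the 41 from -1.21 to -1.12. With only probe sets above the median level, 7.62% of genes fell, against 5.07% of all genes, and the median over genes was -0.14. In that setting 28 genes of the list were called lower, with a median of -1.17. The replicate number as a block gave 31 lower again. Same-numbered arrays showed no shared deviation from their group means (correlations of -0.108, 0.06 and -0.002). These correlations cannot tell whether same-numbered samples were handled together, which the labels do not state. With a minimum difference of 0.58, 2 of 17 ligands, 1 of 18 adaptors and 2 of 77 other interferon-induced genes were called higher. At that minimum 6 of 23 receptor and signalling genes, 7 of 18 adaptors and 41 of 77 other interferon-induced genes were called lower. The share of all genes called at 0.58 is not given here, so these counts cannot be set against it. The count of ligands called lower was 0 to 1 with arrays left out and 0 with either filter on dim probe sets, which removed Il15. The sign of 4 genes that were not called turned. Bst2 was at -0.0019 with equal array medians and between -0.03 (without RAG-/- replicate 3) and 0.18 with arrays left out. Ifngr2 was at 0.13 after a repeated quantile normalization, 0.09 with cyclic loess, and between -0.14 and 0.003 (without DNTLX3+ replicate 3) with arrays left out. Ifng was at -0.06 and -0.11 under those rescalings and between -0.03 (without DNTLX3+ replicate 2) and 0.27 with arrays left out. Ifnb1 ranged from -0.11 to 0.10 with arrays left out, and was positive without DNTLX3+ replicate 1 (0.01), DNTLX3+ replicate 3 (0.05) or RAG-/- replicate 2 (0.10). The cause of these turns was not tested. Values under the array medians may be background, which limits the size of 13 of the 41 differences.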

Other observations

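A few interferon-induced genes outside the list went against its direction, and were picked after their values were seen. Ifi44l (0.82, limma adjusted p = 0.00176) and Cxcl11, a chemokine (0.66, limma adjusted p = 0.0138), were higher in DNTLX3+ cells at the adjusted p, short of the minimum difference. Their means lay under the array medians in both groups, at 4.59 and 5.40 for Ifi44l and at 4.44 and 5.09 for Cxcl11. Near relatives also differed in their values: Ifitm2 was at -0.04 where Ifitm3 was at -3.05, and Slfn3 at 0.40 (limma adjusted p = 0.0764) where Slfn1 was at -1.03. The differences between relatives were not tested.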
